A study of Canis lupus familiaris with 2 samples.

Results

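Müller glia and astrocytes are the large glial cells of the retina, and both are known for taking up what neurons release. Müller glia span the retina from the photoreceptors to the vitreous, and they carry potassium, water and carbon dioxide away from active neurons through membrane channels, transporters and carbonic anhydrases. Astrocytes lie along the nerve fibers and vessels of the inner retina. A set of 6 genes of this machinery, out of 15224 gene names listed for both dogs, was followed here across the cell classes of normal dog neuroretina. They were *KCNJ10*, the inward rectifier Kir4.1 through which glia move potassium, *AQP4*, the main water channel of astroglia, *SLC14A1*, the urea transporter UT-B, *CA2*, a cytosolic carbonic anhydrase, *CA14*, a membrane carbonic anhydrase, and *SLC4A4*, the electrogenic sodium bicarbonate cotransporter NBCe1. They were chosen by name for these roles, with earlier results of these data known. Each had 1 row in the counts of both dogs, so that none was missing from either.

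The samples were neuroretinal punches of N350 and N354, both normal or wild-type male dogs, 40 weeks of age and untreated as far as the labels tell. The tissue was dissociated with trypsin and a neural dissociation kit, and single cells were captured in droplets, where every transcript is tagged with a molecular identifier (UMI), so that copies made by amplification count as 1. N350 had 8900 cells and 24030707 UMIs and N354 had 4392 cells and 9711202 UMIs, with medians of 1298 and 1204.5 UMIs per cell, and 6 cell barcodes occurred in both. The counts of N350 list genes by name and those of N354 by Ensembl identifier, 34981 and 19947 genes, so that the difference between dogs and that between gene annotations cannot be told apart.

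Cell classes were gated from the raw UMIs of marker genes that exclude the 6 genes. Of the cells with at least 200 genes, 7057 of 8895 in N350 and 4019 of 4387 in N354 were given 1 class, and the rest passed no gate or several. The Müller gate, on *RLBP1*, *GLUL*, *SLC1A3*, *DKK3*, *RGR*, *GPR37* and *FRZB*, held 1105 cells of N350 and 529 of N354, with medians of 6332 and 5976 UMIs. The astrocyte gate, on *GFAP*, *PAX2*, *S100B*, *AGT*, *ALDH1L1*, *WFDC2* and *FGG*, held 158 and 64 cells, with medians of 5703 and 4138.5 UMIs. The rod gate held 4760 and 2925 cells, with medians of 1113.5 and 1023 UMIs, and rods stand below for cells that should lack these glial genes. Cones, bipolar and amacrine cells also had at least 20 cells in each dog, whereas horizontal cells numbered 84 and 12 and ganglion-like cells 27 and 1.

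The markers below set the gates, so their levels describe the classes and are no independent check of the labels. All 7 Müller markers were found in Müller glia of both dogs. *GLUL*, the glutamine synthetase of Müller glia, had 91.3 and 126.1 UMIs per 10000 UMIs of all genes in Müller glia against 2.38 and 1.60 in astrocyte-like glia. The astrocyte markers were uneven. *GFAP*, the astrocyte intermediate filament, had 3.85 and 7.14 UMIs per 10000 in astrocyte-like glia against 0.0077 and 0.0117 in Müller glia. *ALDH1L1*, a folate enzyme of astrocytes, had 1.32 and 1.28 against 0.0613 and 0.0117. However, *PAX2*, a transcription factor of retinal astrocytes, had 10 and 3 UMIs in all these cells, *S100B* had 42 and 0, and *AGT* had 15 and 2. *WFDC2* alone gave 4186 of the 5836 astrocyte marker UMIs in N350, and the cells are therefore called astrocyte-like. Astrocyte markers summed to 67.7 and 71.7 UMIs per 10000 there and to 0.462 and 0.0703 in Müller glia, a contrast that the gates impose. Müller markers summed to 14.9 and 19.98 in astrocyte-like glia, with *FRZB* higher there than in Müller glia in both dogs. Rod markers summed to 22.8 and 34.8 in Müller glia and to 19.1 and 12.2 in astrocyte-like glia. The part of RNA from other cells in the results was not tested, beyond a subtraction of the level in rods that is given at the end. No cell was given the class of retinal pigment epithelium, oligodendrocytes or erythrocytes.

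The level of a gene is given as its UMIs per 10000 UMIs of all genes over the cells of a class in a dog, with an exact Poisson 95% interval in brackets. Such intervals speak for counting error alone, and the spread between the animals is seen from the pair of values. The assay reads the 3′ ends of transcripts, so that levels are compared across classes for each gene and not between genes. Folds are on the log2 scale of edgeR's quasi-likelihood test on UMIs summed per class and dog, with the dog as a block. Each standard error (SE) was calculated here as the absolute fold divided by the square root of the F statistic of that test. The 2 sums of a class come from different dogs, and a difference passed the test at an adjusted p under 0.05.

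**Figure D1:**
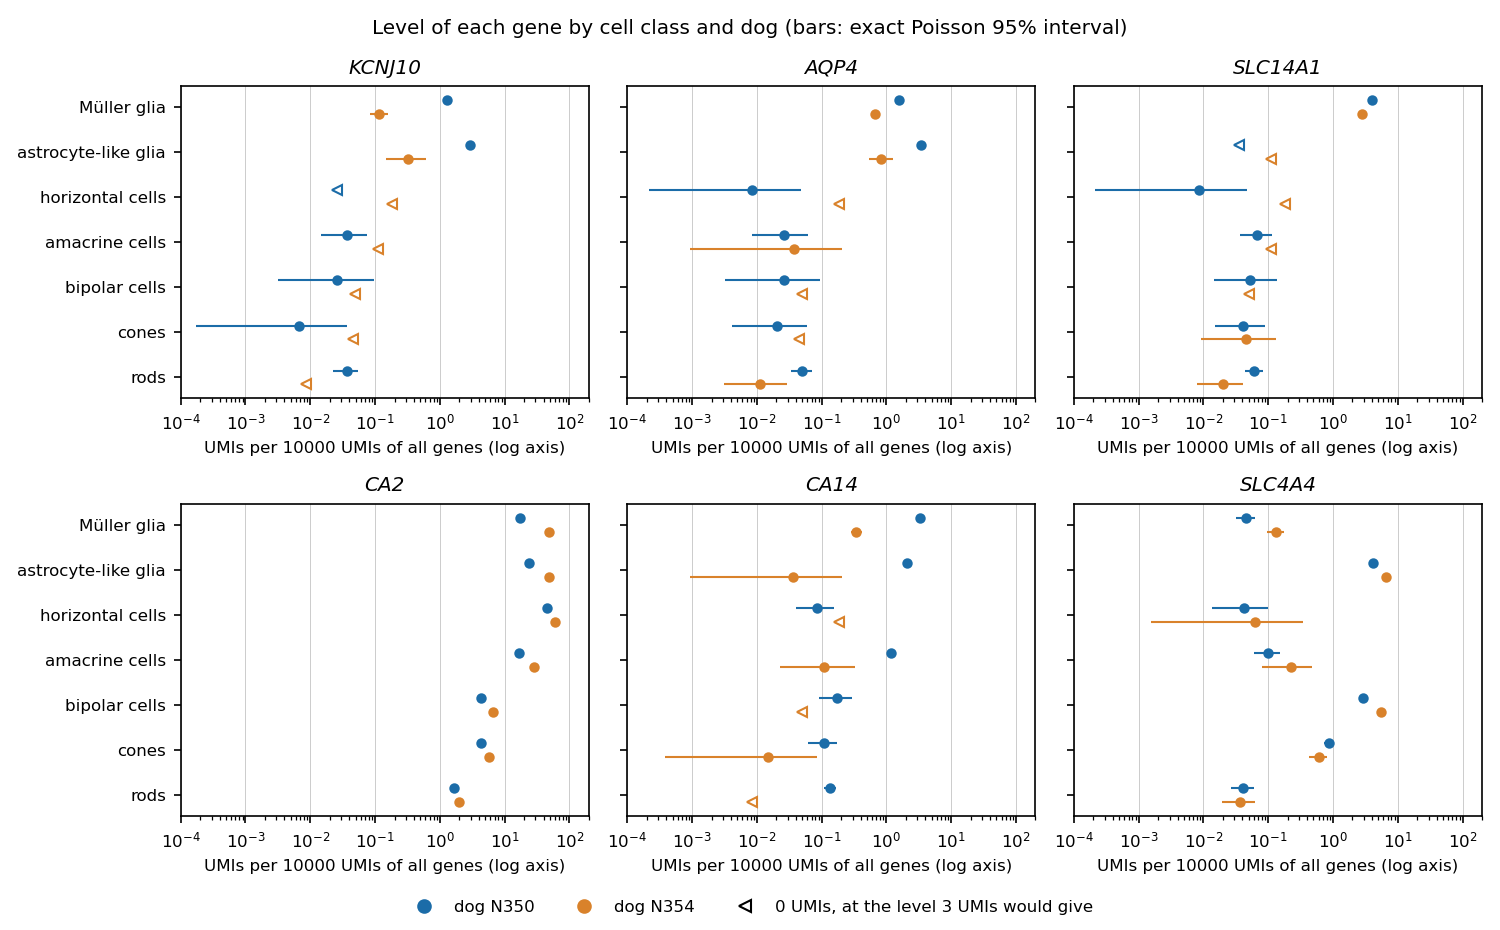
Level of each of the 6 genes (x axes, UMIs per 10000 UMIs of all genes, log scale) in 7 cell classes (y axes), with blue points for N350, orange points for N354, bars for exact Poisson 95% intervals and open triangles for classes with 0 UMIs. *SLC14A1* sits near 3 or 4 in Müller glia alone, *SLC4A4* is high in astrocyte-like glia and bipolar cells, and *CA2* is highest in horizontal cells.

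Against rods, the 6 genes, chosen with earlier results of these data known, stood apart from most of the transcriptome. All 6 were higher in Müller glia, where 30.2% of the 11966 genes tested were called higher and 28.8% lower. In astrocyte-like glia over rods, 5 were higher and 1, *SLC14A1*, was lower, where 24.8% of genes were called higher and 25.2% lower. The median fold of the 6 genes was 5.47 in Müller glia over rods and 4.99 in astrocyte-like glia over rods, whereas the medians of all genes tested were -0.011 and -0.218. *SLC14A1*, at 0 UMIs in astrocyte-like glia, is the lowest of the 6 there whatever value it is given below that of rods, so that it does not set the median. Between the 2 kinds of glia, 2 of the 6 were higher in Müller glia, *SLC14A1* and *CA14*, 1 was lower, *SLC4A4*, and 3 did not pass the test. The background of that comparison was 20.2% of genes called, 11.9% higher and 8.31% lower in Müller glia. Both glia thus had high levels of *KCNJ10*, *AQP4* and *CA2*, and they parted in *SLC14A1* and *SLC4A4*.

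Against the other neurons the count was alike. In Müller glia over cones, 5 of the 6 genes were higher and *SLC4A4* was lower, where 24.5% of all genes were called higher and 19.7% lower. In Müller glia over bipolar cells the same genes were higher and *SLC4A4* was again lower, where 21.3% were called higher and 17.1% lower. In Müller glia over amacrine cells those 5 were higher and *SLC4A4* did not pass the test, where 21.4% were called higher and 22.1% lower. For the comparisons named further on, the share of all genes called in either direction was 39.7% in astrocyte-like glia over cones, 36.1% over bipolar cells and 36.1% over amacrine cells. It was 23.1% in cones over bipolar cells, 37.0% in cones over amacrine cells, 22.3% in cones over rods, 25.0% in bipolar over amacrine cells, 32.9% in bipolar cells over rods and 52.5% in amacrine cells over rods.

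*SLC14A1*, the urea transporter, was a gene of Müller glia in these retinas. Its level in Müller glia was 3.99 (3.85 to 4.13) for N350 and 2.82 (2.65 to 3.005) for N354, from 3122 and 964 UMIs. In astrocyte-like glia there was no UMI among 861858 in N350 and none among 274342 in N354. Both Müller values were far above every other tested class of either dog. The 4 microglia and 1 ganglion-like cell of N354, with 0 UMIs of *SLC14A1*, were too few to be ranked against Müller glia. A count of 0 allows up to 3 UMIs, or levels of up to 0.0348 and 0.109, so that *SLC14A1* was at least 114.5-fold higher in Müller glia than in astrocyte-like glia of N350 and at least 25.8-fold higher in N354. The difference passed the test (edgeR adjusted p = 1.14e-09), and the fitted fold is not given because it depends on the prior count.

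A UMI of *SLC14A1* was found in 690 of 1105 Müller glia of N350, 62.4% (59.5 to 65.3, exact binomial 95% interval), and in 350 of 529 of N354, 66.2% (61.9 to 70.2). Among astrocyte-like glia it was found in 0 of 158 cells, which allows a share of cells with a UMI of up to 1.90%, and in 0 of 64, which allows up to 4.69%. These limits hold for cells with a UMI and not for cells that express the gene. In rods, at a far lower depth, it was found in 0.651% and 0.137% of cells. After every cell was thinned to 1000 UMIs, with 53 and 32 shallower Müller glia, 7 and 1 astrocyte-like glia and 1895 and 1400 rods left out, the shares in Müller glia were 26.1% and 23.3%, and those in rods were 0.534% and 0.0929%. The other classes were near the level of rods. Cones had 0.0405 and 0.0450 UMIs per 10000, rods 0.0613 and 0.0199, amacrine cells 0.0678 and 0 and bipolar cells 0.0526 and 0. None of the 6 comparisons among these 4 classes passed the test, and the smallest of their edgeR adjusted p values was 0.542. The call of *SLC14A1* as lower in astrocyte-like glia than in rods (edgeR adjusted p = 0.0161) rested on N350, since the level that 0 UMIs allow was under that of rods in N350 and above it in N354. That call was lost with DESeq2 (adjusted p = 0.116) and without the dog as a block (edgeR adjusted p = 0.159).

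Müller glia varied in *SLC14A1* by more than counting in both dogs, and most in N350. In N350, 37.6% of them had no UMI, where a single level in all cells at their depths would leave 19.3%, and 251 of the 1105 cells had 5 or more. In N354 the shares without a UMI were 33.8% found against 27.2%. The excess was smaller for *CA14* in the same cells of N350, with 24.6% of Müller glia without a UMI against 23.3%. *AQP4*, with 48.4% against 42.2%, and *KCNJ10*, with 51.4% against 47.6%, also had an excess there, so that it was not particular to *SLC14A1*. Müller glia with over 10% of UMIs on the 13 mitochondrial genes had an *SLC14A1* level of 1.56 (1.24 to 1.95) in N350, against 4.15 (4.01 to 4.30) in those with at most 10%. Those cells were also shallower, with a median of 2288 against 7835 UMIs. In N354 the levels were 2.53 (2.28 to 2.79) and 3.06 (2.82 to 3.32), with medians of 5377 and 6923 UMIs. Lower levels in Müller glia over 10% were not particular to *SLC14A1*. In N350, *KCNJ10* had 0.962 against 1.305 and *AQP4* 1.02 against 1.59. *CA2* had 14.45 against 17.71 and *CA14* 2.505 against 3.338.

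*SLC4A4*, the bicarbonate cotransporter, had the opposite pattern among glia. Its level in astrocyte-like glia was 4.18 (3.76 to 4.63) for N350 and 6.67 (5.74 to 7.71) for N354, a mean of 5.42 ± 1.76 (SD, n = 2). In Müller glia it was 0.0460 (0.0322 to 0.0637) and 0.132 (0.0961 to 0.176), a mean of 0.0888 ± 0.0606 (SD, n = 2). Astrocyte-like glia were the higher class in both dogs, and the classes did not overlap. The ratio of Müller to astrocyte-like glia was 0.0110 (0.00759 to 0.0155) for N350 and 0.0198 (0.0139 to 0.0275) for N354. In the fit, the log2 fold of Müller over astrocyte-like glia was -5.48 ± 0.33 (SE, edgeR adjusted p = 6.09e-10).

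The other class with much *SLC4A4* was a neuronal one. Bipolar cells had 2.96 (2.59 to 3.37) and 5.49 (4.91 to 6.11), and the fold of astrocyte-like glia over bipolar cells was 0.36 ± 0.27 on the log2 scale (edgeR adjusted p = 0.315). Cones followed with 0.884 (0.739 to 1.05) and 0.601 (0.429 to 0.818), lower than bipolar cells (log2 fold -2.19 ± 0.29, edgeR adjusted p = 1.01e-05) and higher than amacrine cells (2.82 ± 0.42, edgeR adjusted p = 2.09e-05). Amacrine cells had 0.0991 and 0.221. Their comparison with Müller glia did not pass the test (log2 fold of Müller over amacrine cells -0.10 ± 0.47, edgeR adjusted p = 0.889). By level, however, Müller glia were the lower class in each dog. Those of N350 had 0.464 times the amacrine level, and the interval, 0.259 to 0.856, excludes 1. Those of N354 had 0.596 times, and the interval, 0.253 to 1.71, includes 1. Both log2 ratios, -1.11 and -0.75, lie under the fitted fold. The median of all genes there moved from -0.05 with TMM to -0.72 with library totals, so equal levels were not shown. The 27 ganglion-like cells of N350 had 0.777 (0.569 to 1.04), and that class was not tested. Only 9 of these cells had a UMI of *SLC4A4*, and 22 of the 46 UMIs were in 1 cell.

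Müller glia were called higher than rods in *SLC4A4* (log2 fold 1.36 ± 0.40, edgeR adjusted p = 0.00689), but little lies behind this call. Rods had 0.0414 and 0.0370 UMIs per 10000, from 25 and 13 UMIs, and the level of Müller glia divided by that of rods was 1.11 (0.649 to 1.93) for N350 and 3.56 (1.89 to 7.20) for N354. The counting interval of N350 includes 1 and that of N354 does not. The call was lost with the mitochondrial limit of the study (edgeR adjusted p = 0.12) and without the dog as a block (edgeR adjusted p = 0.0929). That limit left only Müller glia, astrocyte-like glia and rods in the fit, with 2 residual degrees of freedom against 5, so lost power and the limit cannot be told apart.

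The counts of both transporters in single cells followed the levels of the classes. Among Müller glia, 667 of 1105 cells of N350 and 319 of 529 of N354 had a UMI of *SLC14A1* and none of *SLC4A4*, whereas 8 and 11 had *SLC4A4* and no *SLC14A1*. Both genes were found together in 23 and 31 Müller glia, which were most of the 31 and 42 Müller glia with *SLC4A4*. Of all Müller glia, 62.4% and 66.2% had *SLC14A1*, and whether the overlap exceeded these shares was not tested. Among astrocyte-like glia, 121 of 158 and 59 of 64 cells had *SLC4A4*, none of them with *SLC14A1*. Those shares with *SLC4A4*, 76.6% and 92.2%, compare with 2.81% and 7.94% of Müller glia at a higher depth and with 0.525% and 0.444% of rods. Thinned to 1000 UMIs, *SLC4A4* was found in 31.8% and 49.2% of astrocyte-like glia, 0.525% and 1.74% of Müller glia and 0.449% and 0.385% of rods. In N350 the thinned share of Müller glia was thus near that of rods.

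**Figure D2:**
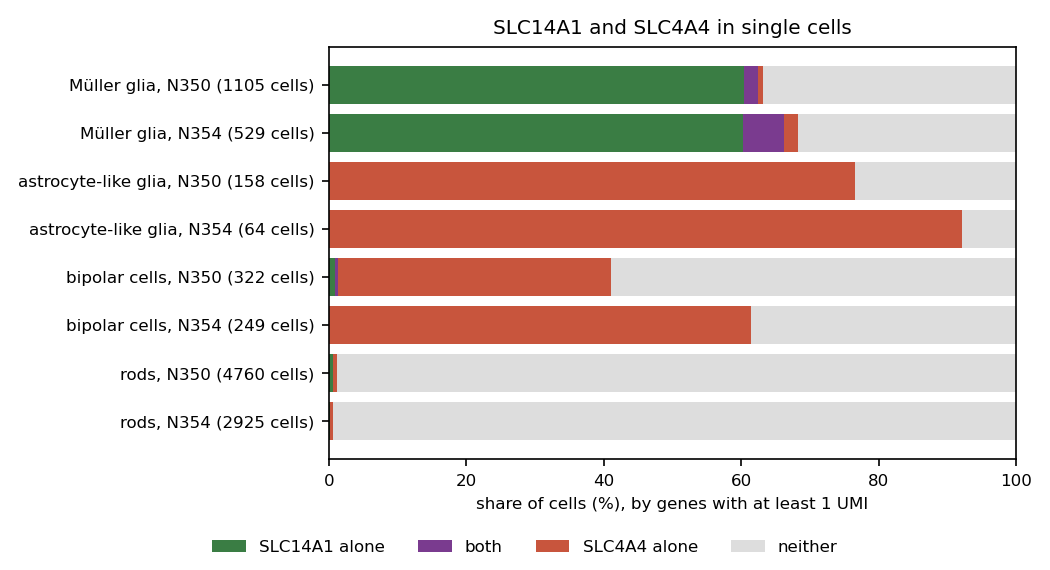
Share of cells (x axis, %) with at least 1 UMI of *SLC14A1* alone (green), of both genes (purple), of *SLC4A4* alone (red) or of neither (grey), for 4 classes in each dog (y axis). Green fills most of the colored part of the Müller bars, and red alone fills that of the astrocyte-like bars.

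*KCNJ10*, the potassium channel, was found in both glia and was near the level of rods in cones, bipolar and amacrine cells. Astrocyte-like glia had 2.91 (2.56 to 3.30) in N350 and 0.328 (0.150 to 0.623) in N354, and Müller glia had 1.28 (1.20 to 1.36) and 0.117 (0.0836 to 0.159). Rods had 0.0364 (0.0228 to 0.0552) and 0, where the latter allows up to 0.00853. Among the tested classes within each dog, astrocyte-like glia were the highest and Müller glia the second. Müller glia of N350 were, however, above astrocyte-like glia of N354. The ratio of Müller to astrocyte-like glia was 0.441 (0.383 to 0.508) for N350 and 0.357 (0.170 to 0.837) for N354.

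On the edgeR scale *KCNJ10* was 5.61 ± 0.34 higher in Müller glia than in rods (adjusted p = 5.88e-11) and 6.29 ± 0.36 higher in astrocyte-like glia than in rods (adjusted p = 4.04e-11). Without the dog as a block these edgeR adjusted p values were 0.0754 and 0.0552. Its fold of Müller over astrocyte-like glia was -0.68 ± 0.26 and did not pass the test (edgeR adjusted p = 0.0761). That call turned on scaling, because it passed with DESeq2's size factors (-0.77, edgeR adjusted p = 0.0396) and with library totals without TMM, a setting added after the data had been seen (-1.24, edgeR adjusted p = 0.00195). With library totals the median of all genes was itself -0.41, against 0.13 with TMM. Among cones, bipolar cells, amacrine cells and rods, none of the 6 comparisons of *KCNJ10* passed the test, and the smallest edgeR adjusted p was 0.107.

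*AQP4*, the water channel, followed *KCNJ10* across the classes. Its level was 3.42 (3.04 to 3.84) and 0.838 (0.531 to 1.26) in astrocyte-like glia and 1.55 (1.47 to 1.64) and 0.676 (0.592 to 0.769) in Müller glia. In rods it was 0.0497 (0.0335 to 0.0709) and 0.0114 (0.00310 to 0.0291). Astrocyte-like glia were higher than Müller glia in both dogs, with a ratio of Müller to astrocyte-like glia of 0.454 (0.399 to 0.517) in N350, whereas that of N354, 0.807 (0.524 to 1.30), includes 1. The fold between the glia was -0.27 ± 0.24 and did not pass the test (edgeR adjusted p = 0.509), but it did with library totals without TMM (-0.83, edgeR adjusted p = 0.0187). Over rods the log2 folds were 5.64 ± 0.31 in Müller glia (edgeR adjusted p = 2.09e-11) and 5.91 ± 0.33 in astrocyte-like glia (edgeR adjusted p = 3.02e-11). A UMI of *AQP4* was found in 51.6% and 29.5% of Müller glia, 73.4% and 29.7% of astrocyte-like glia and 0.630% and 0.137% of rods. The 34 vascular cells of N350 had 0.321 (0.129 to 0.661), but all 7 of their UMIs were in 1 cell.

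Many glial cells of N350 had a UMI of both *KCNJ10* and *AQP4*. Of its Müller glia, 372 had a UMI of both genes, 165 of *KCNJ10* alone, 198 of *AQP4* alone and 370 of neither. Of its astrocyte-like glia, 84 of 158 had both. *AQP4* was found in 51.6% of these Müller glia and 73.4% of these astrocyte-like glia. Whether both genes met in a cell more often than their shares alone would give was not tested. The shares of cells with *KCNJ10* in N350 were 48.6% of Müller glia, 65.8% of astrocyte-like glia and 0.462% of rods, and 10.9%, 23.8% and 0.305% after thinning. In N354, where *KCNJ10* had 50 UMIs in all cells against 1372 in N350, both genes were found in 13 of 529 Müller glia and 4 of 64 astrocyte-like glia.

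*CA2*, the cytosolic carbonic anhydrase, was not confined to glia. Its level was highest in horizontal cells, 45.1 (43.9 to 46.4) in the 84 cells of N350 and 59.3 (55.6 to 63.2) in the 12 cells of N354, or 63.2 and 80.2 UMIs per cell. Every horizontal cell had a UMI of *CA2*. Horizontal cells stood above every other gated class in both dogs, but with 12 cells in N354 the class was not tested.

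Glia came next for *CA2*. Astrocyte-like glia had 24.2 (23.2 to 25.3) and 48.0 (45.5 to 50.7), and Müller glia had 17.5 (17.2 to 17.8) and 47.7 (47.0 to 48.5). The glia were close in N354, with a ratio of 0.994 (0.939 to 1.05), and Müller glia were lower in N350, with a ratio of 0.722 (0.689 to 0.756). The fitted fold of Müller over astrocyte-like glia was 0.38 ± 0.23 with TMM and turned to -0.20 with library totals, and it passed the test in neither (edgeR adjusted p = 0.292 and 0.563). Amacrine cells followed with 16.7 (16.1 to 17.2) and 28.7 (26.7 to 30.8). In the fit they were lower than Müller glia (log2 fold of Müller over amacrine cells 1.15 ± 0.24, edgeR adjusted p = 0.000503) and than astrocyte-like glia (0.77 ± 0.23, edgeR adjusted p = 0.0139). The ratio of Müller glia to amacrine cells was 1.05 (1.01 to 1.09) in N350, where the levels were close, and 1.66 (1.55 to 1.79) in N354. On the log2 scale these ratios were 0.07 and 0.73, both under the fitted fold. The median of all genes in Müller over amacrine cells was -0.05 with TMM and -0.72 with library totals. Cones had 4.40 and 5.74 and bipolar cells 4.38 and 6.60, and the comparison of these classes did not pass the test (edgeR adjusted p = 0.925). Rods had the lowest level of the tested classes, 1.66 (1.56 to 1.77) and 1.996 (1.85 to 2.15), and *CA2* was found in 16.4% and 17.8% of them. Over rods the log2 folds were 4.44 ± 0.27 in Müller glia (edgeR adjusted p = 5.44e-11) and 4.06 ± 0.26 in astrocyte-like glia (edgeR adjusted p = 1.84e-10).

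*CA14*, the membrane carbonic anhydrase, leaned to Müller glia. Its level there was 3.29 (3.16 to 3.41) for N350 and 0.345 (0.286 to 0.414) for N354. Astrocyte-like glia had 2.11 (1.82 to 2.44) and 0.0365 (0.000923 to 0.203), the latter from 1 UMI. Müller glia were higher in both dogs, with ratios of 1.55 (1.34 to 1.82) and 9.47 (1.67 to 377), and the wide interval of N354 reflects that single UMI. With the astrocyte gate without *WFDC2* and *FGG*, which left 13 and 11 cells, astrocyte-like glia had 2.19 in N350 and 0 of 51291 UMIs in N354. Müller glia were still higher in N350, whereas the level that 0 UMIs allow in N354 is above that of Müller glia. The log2 fold was 1.48 ± 0.33 (edgeR adjusted p = 0.00289), but the call was lost with DESeq2 (adjusted p = 0.18) and without the dog as a block (edgeR adjusted p = 0.97). It was also lost with the mitochondrial limit of the study (edgeR adjusted p = 0.095), in the smaller fit that this limit leaves.

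A UMI of *CA14* was found in 75.4% and 18.5% of Müller glia and in 54.4% and 1.56% of astrocyte-like glia, against 1.53% of rods in N350 and 0 of 2925 rods in N354.

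Amacrine cells were the neuronal class with most *CA14*, at 1.17 (1.02 to 1.34) in N350 and 0.111 (0.0228 to 0.323) in N354. They were lower than Müller glia (log2 fold of Müller over amacrine cells 2.29 ± 0.35, edgeR adjusted p = 2.16e-05) and higher than rods (3.04 ± 0.39, edgeR adjusted p = 1.76e-06). The log2 ratio of levels of Müller glia to amacrine cells was 1.48 in N350 and 1.64 in N354, both under that fitted fold. The ratio of N354 rested on 3 amacrine UMIs. Astrocyte-like glia over amacrine cells did not pass the test (0.81 ± 0.36, edgeR adjusted p = 0.0926). Cones, bipolar cells and rods ranged from 0.108 to 0.171 in N350 and from 0 to 0.0150 in N354, and none of the 3 comparisons among them passed the test. Over rods the log2 fold in Müller glia was 5.33 ± 0.36 (edgeR adjusted p = 2.51e-10) and that in astrocyte-like glia was 3.85 ± 0.39 (edgeR adjusted p = 8.22e-08), and without the dog as a block these edgeR adjusted p values were 0.196 and 0.302.

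**Figure D3:**
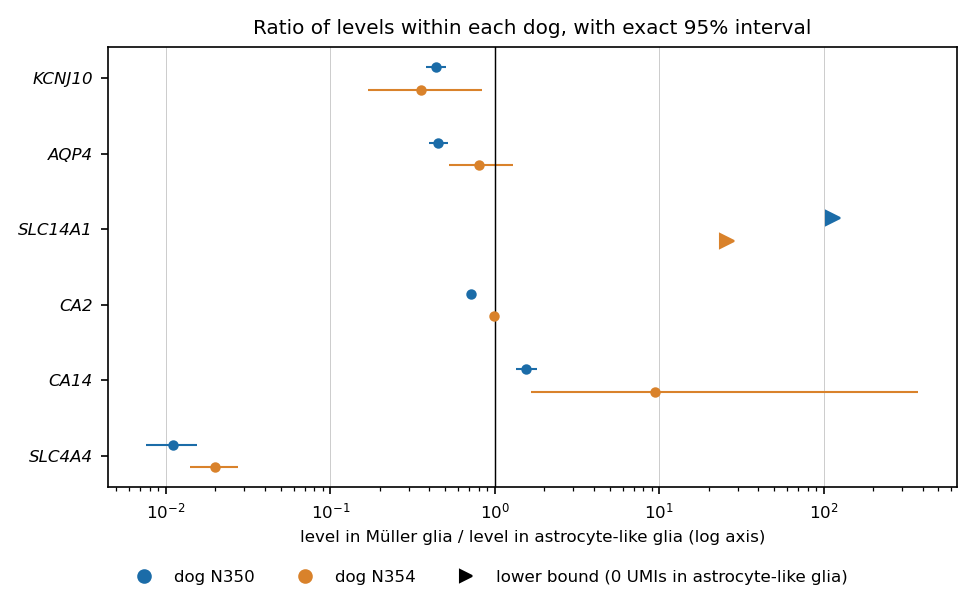
Ratio of the level in Müller glia to that in astrocyte-like glia (x axis, log scale) for each gene (y axis), with blue for N350, orange for N354, bars for exact 95% intervals and arrowheads for lower bounds. *SLC14A1* lies at or beyond 25.8 in both dogs and *SLC4A4* at 0.0110 and 0.0198, whereas *KCNJ10*, *AQP4* and *CA2* lie between 0.357 and 0.994.

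The dogs differed in the level of several of these genes. In Müller glia, N350 had 10.96 times (7.99 to 15.4) the *KCNJ10* level of N354 and 9.51 times (7.91 to 11.5) the *CA14* level. In astrocyte-like glia *KCNJ10* was 8.88 times (4.60 to 19.6) higher in N350. *CA2* went the other way, with 0.367 times (0.358 to 0.375) the level of N354 in Müller glia and 0.505 times (0.471 to 0.541) in astrocyte-like glia. *SLC14A1* was the closest of the 6 genes in Müller glia, at 1.41 times (1.31 to 1.52), and *AQP4* was at 2.30 times (1.99 to 2.66). *SLC4A4* was lower in N350 in Müller glia, astrocyte-like glia and bipolar cells, by ratios of 0.349, 0.626 and 0.539. The gene models differ between the dogs, and their part in these ratios cannot be told apart from that of the animal.

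**Figure D4:**
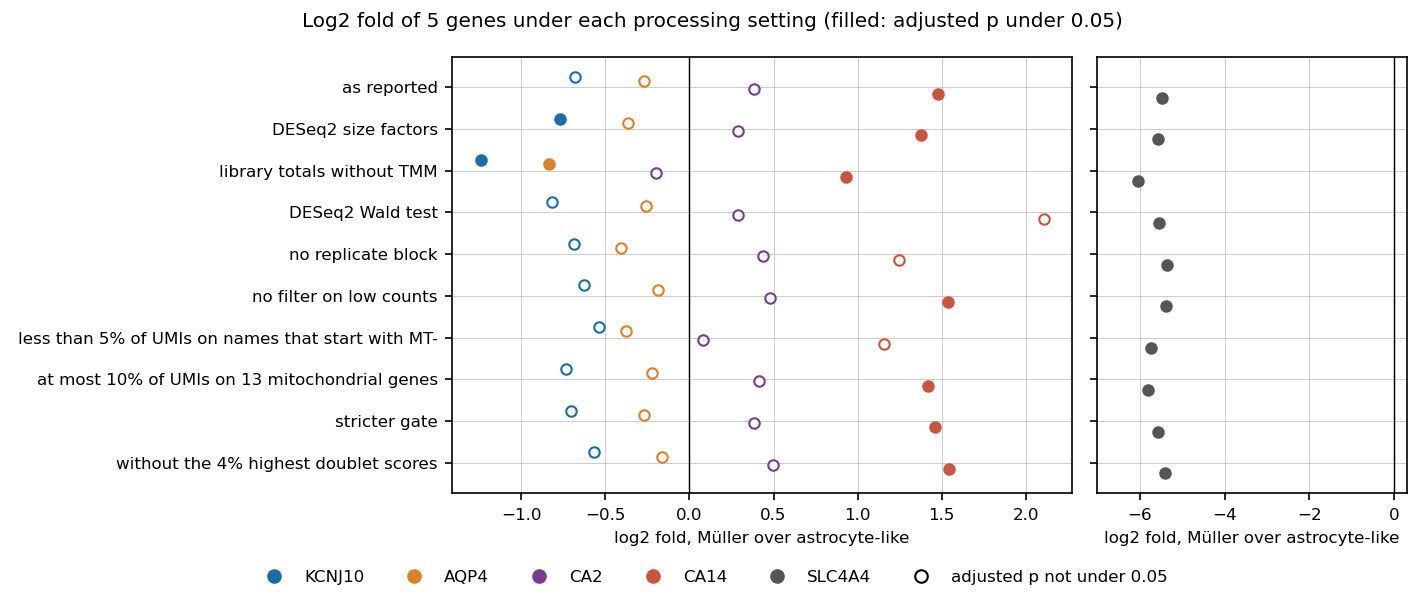
Log2 fold of Müller over astrocyte-like glia (x axes) for 5 genes under each processing setting (y axis), filled where the adjusted p was under 0.05, with *SLC4A4* on an axis of its own and *SLC14A1* left out because it had 0 UMIs in astrocyte-like glia. *SLC4A4* is filled under all 10 settings, *CA2* is open under all 10 and crosses 0 with library totals, and *KCNJ10* is filled under 2.

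The genes whose levels were most like those of each of the 6 were ranked by Pearson's r of log2 levels over the 12 sums of 6 classes and 2 dogs, each centred within its dog, among 8698 genes. These values describe a few classes that share a library and carry no test. *KCNJ10* was most like *ZCCHC24* (0.992), *PRELP* (0.992), *TNS3* (0.990), *CNP* (0.988) and *CCN1* (0.987), and *AQP4* was most like *CNP* (0.988), *FBN3* (0.988), *CCN1* (0.985), *MICALL2* (0.984) and *SNX29* (0.984). These lists share *CNP* and *CCN1*, and *KCNJ10* and *AQP4* had an r of 0.970 with each other. *SLC14A1* was most like *CDH23* (0.992), *DIO2* (0.982), *PRR5L* (0.982), *HSD17B2* (0.980) and *C9H17orf67* (0.980), and it had an r of 0.316 with *KCNJ10* and of -0.498 with *SLC4A4*. *CA2* was most like *EBPL* (0.983), *RPL36AL* (0.976), *ANKRD9* (0.976), *MAGED2* (0.968) and *SPCS2* (0.965). *CA14* was most like *RCN2* (0.964), *EPHA4* (0.96), *ANTXR1* (0.946), *GFRA1* (0.943) and *NECAB3* (0.941). *SLC4A4* had the loosest matches, among them *EIF1* (0.931), *USP24* (0.931), *ANOS1* (0.893) and *H3-3A* (0.882).

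Other genes of the same pathways were counted in 4 lists. Among 18 potassium channels and cation chloride cotransporters, 16 were tested, and 1 was lower and none higher in Müller than in astrocyte-like glia, where 8.31% and 11.9% of all genes were called. Over rods, Müller glia were higher in 5 and lower in 3, where 30.2% and 28.8% of all genes were called, so that the share higher was near the background. The 1 gene lower than in astrocyte-like glia was *KCNJ16*, which encodes Kir5.1, a partner of Kir4.1. It had 24 and 6 UMIs in astrocyte-like glia, or 0.279 and 0.219 per 10000, against 0 and 1 UMIs in the much larger sum of Müller glia (edgeR adjusted p = 5.21e-05, and 0.14 without the dog as a block). In Müller glia over rods *KCNJ16* did not pass the test. *SLC12A4*, the potassium chloride cotransporter KCC1, was 6.34 ± 0.65 higher in Müller glia than in rods (edgeR adjusted p = 1.96e-07, and 0.0729 without the block), with 0.0204 and 0.436 per 10000 in Müller glia and 0.0812 and 1.42 in astrocyte-like glia, and 1 UMI in the rods of each dog. *KCNJ12*, the inward rectifier Kir2.2, was 4.56 ± 0.76 higher in Müller glia than in rods (edgeR adjusted p = 4.33e-05), at 0.0600 and 0.0732, with 3 and 0 UMIs in rods. *KCNJ14*, the inward rectifier Kir2.4, went the other way, with 4.31 and 0.227 in rods against 0.266 and 0.0263 in Müller glia (log2 fold of Müller over rods -3.44 ± 0.26, edgeR adjusted p = 9.63e-10, and 0.284 without the block). The median fold of Müller over astrocyte-like glia was 1.61 over all 16 genes tested and -0.48 over the 6 with at least 3 UMIs in both glia, so that its sign turned on the 10 genes with fewer than 3 UMIs in 1 or both of the glia. The median of all genes tested, without that filter, was 0.13.

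Among 14 water channels and membrane partners of AQP4, 11 were tested, and 8 were higher and 2 lower in Müller glia than in rods, where 30.2% and 28.8% of all genes were called. Between the glia 2 were higher and 1 was lower in Müller glia, where 11.9% and 8.31% of all genes were called. *AQP5*, an aquaporin best known from secretory epithelia, had 4.52 and 1.63 UMIs per 10000 in Müller glia, 1.17 and 0.328 in astrocyte-like glia and 0.172 and 0.00853 in rods. Müller glia were the highest of these 3 in both dogs, with log2 folds of 2.69 ± 0.36 over astrocyte-like glia (edgeR adjusted p = 1.7e-05, and 0.613 without the block) and 5.64 ± 0.37 over rods (edgeR adjusted p = 1.55e-10, and 0.0626 without the block). *MLC1*, a membrane protein of astroglial end-feet, had 3.13 and 0.445 in Müller glia and 3.05 and 0.437 in astrocyte-like glia, and it was 5.32 ± 0.28 higher in Müller glia than in rods (edgeR adjusted p = 1.41e-11, and 0.0754 without the block). *HEPACAM*, its adhesion partner, was lower in Müller than in astrocyte-like glia, with 0.0217 and 0.0527 against 0.162 and 0.547 (log2 fold -2.55 ± 0.60, edgeR adjusted p = 0.00575, 0.426 without the block and 0.497 with DESeq2). *AQP1* had 6 and 44 UMIs in Müller glia, 0 and 1 in astrocyte-like glia and 0 in rods of both dogs, and its call over rods (edgeR adjusted p = 6.48e-05) was lost without the block (0.127) and with DESeq2 (adjusted p = 0.172). The median fold of Müller glia over rods was 4.70 over the 11 genes and 3.63 over the 9 with at least 3 UMIs in both classes, against -0.011 for all genes.

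The urea and arginine list held 7 genes, of which 5 were tested. None was higher and 1 was lower in Müller than in astrocyte-like glia, where 20.2% of all genes were called, and 1 was higher and 1 lower in Müller glia than in rods, where 30.2% and 28.8% were. Counts this small do not set the list apart from all genes. *ASS1*, argininosuccinate synthetase, was 3.42 ± 0.39 higher in Müller glia than in rods (edgeR adjusted p = 2.82e-07), at 0.244 and 0.0937 against 0.0315 and 0.00853. *ARG2*, the mitochondrial arginase that makes urea from arginine, had 11 and 6 UMIs in Müller glia and 89 and 85 in rods (log2 fold of Müller over rods -3.16 ± 0.45, edgeR adjusted p = 6.34e-06). *SLC7A2*, a carrier of cationic amino acids, had 0.444 and 0.123 in Müller glia and 1.53 and 0.474 in astrocyte-like glia (log2 fold -1.28 ± 0.29, edgeR adjusted p = 0.00323, 0.867 without the block and 0.128 with DESeq2). The median fold of Müller over astrocyte-like glia over these 5 genes was -0.63, against 0.13 for all genes.

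Among 26 carbonic anhydrases and carriers of bicarbonate, protons and lactate, 19 were tested, and 3 were higher and 3 lower in Müller than in astrocyte-like glia, where 11.9% and 8.31% of all genes were called. Over rods 7 were higher and 1 was lower, where 30.2% and 28.8% were called, and the shares higher were near these backgrounds. *CA5B*, a mitochondrial carbonic anhydrase, had 1.06 and 0.767 in Müller glia against 0.0928 and 0.0365 in astrocyte-like glia (log2 fold 4.12 ± 0.43, edgeR adjusted p = 6.59e-07). *CA13*, a cytosolic carbonic anhydrase, had 0.184 and 0.178 in Müller glia against 2.17 and 4.23 in astrocyte-like glia (-3.46 ± 0.27, edgeR adjusted p = 1.7e-08). *SLC4A7*, the electroneutral sodium bicarbonate cotransporter NBCn1, had 2.66 and 3.35 in Müller glia against 0.406 and 0.182 in astrocyte-like glia (3.65 ± 0.30, edgeR adjusted p = 3.26e-08), and rods were higher still, with 5.96 and 8.54. These 3 calls between the glia held without the block, and *SLC4A7* and *SLC4A4* thus lay on opposite sides of the comparison of Müller with astrocyte-like glia. *BSG*, basigin, the partner of lactate carriers, had 12.4 and 0.981 in Müller glia against 3.03 and 0.255 in astrocyte-like glia (2.56 ± 0.24, edgeR adjusted p = 1.28e-07, and 0.79 without the block). The median fold of Müller over astrocyte-like glia was 0.49 over the 19 genes and 0.35 over the 14 with at least 3 UMIs in both, against 0.13 for all genes.

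**Figure D5:**
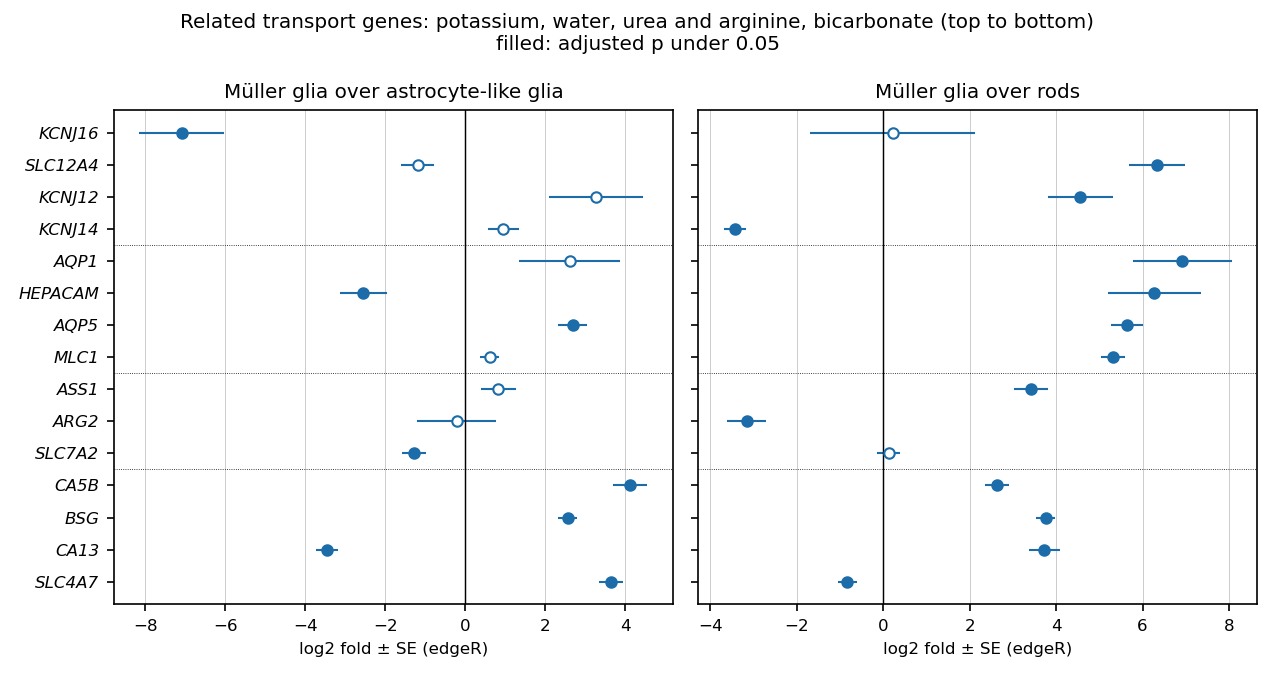
Log2 fold ± SE of 15 related transport genes (y axis) in Müller glia over astrocyte-like glia (left) and over rods (right), grouped by list with dotted lines and filled where the adjusted p was under 0.05. *KCNJ16*, *HEPACAM*, *SLC7A2* and *CA13* lie to the left of 0 and *AQP5*, *CA5B*, *BSG* and *SLC4A7* to the right in the comparison between glia, and the fitted folds of *AQP1* and *HEPACAM* over rods, where both had 0 UMIs, depend on the prior count.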

How the data were processed

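Neuroretina of 2 normal dogs was measured by droplet single-cell RNA sequencing (10x 3′ v3.1). The authors ran Cell Ranger, version 6.0.2 per the file headers, and name canFam6 as the genome. What they deposited are UMI counts of each gene in each cell, not normalized. No genome of that build was used here, and no sequences are given.

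Cells with at least 200 genes were kept with no mitochondrial limit. The limit of the study, under 5%, was run as an alternative on names that start with MT-. Those are 12 mitochondrial genes in N354 but only a metallothionein in N350, so it acted on N354 alone, leaving 1369 cells. Cones, bipolar and amacrine cells of N354 then fell under the minimum, and that fit held 6 sums with 2 residual degrees of freedom. A class was given by UMIs of its markers per 10000 UMIs and a minimum number of UMIs: 60 and 10 for Müller glia, 15 and 6 for astrocyte-like glia, 250 and 20 for rods, 150 and 10 for cones, 40 and 6 for bipolar cells, 10 and 5 for horizontal, amacrine and ganglion-like cells and 20 and 5 for the others. The 90 and 81 cells that passed several gates were left out, except that among horizontal, amacrine and ganglion-like gates the one passed by the largest factor was taken. The thresholds were set after marker UMIs, not those of the 6 genes, had been seen. Scrublet (scanpy 1.11.5) at its own threshold marked 0.0% and 0.046% of cells and so did not work as a doublet caller, and the 4% highest scores were left out as an alternative.

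Counts were summed per class and dog for classes with at least 20 cells per dog, 12 sums, and tested over 11966 genes with at least 10 UMIs by edgeR 4.0.16 (quasi-likelihood, TMM, Benjamini-Hochberg adjustment, R 4.3.3), with all 6 classes in 1 fit and 5 residual degrees of freedom. DESeq2 1.42.0 was an alternative. The dog was a block because sums of 1 dog come from 1 animal, and the deviations of same-dog sums from the class means correlated between 0.610 and 0.824 (median 0.694). On simulated data the test recovered 79.0% of 100 genes changed by a log2 fold of 2 and 15.0% of those changed by 1 in Müller over astrocyte-like glia, with 5 false calls among 11910 genes. The simulation drew all classes of a dog from 1 gene profile, with 1 dispersion for all genes. It changed only genes with at least 100 UMIs over all sums, and only in Müller glia. The real classes differ in many more genes, and some sums hold 0 UMIs of a gene, so these rates need not hold for the real data. Exact intervals used scipy 1.17.1, and a count of 0 was taken to allow 3. Shares after thinning are hypergeometric expectations at 1000 UMIs.

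The named genes were the 6 genes, the gate markers, the genes of the 4 lists called in Müller over astrocyte-like glia or over rods with the largest folds, at most 4 a list, with *KCNJ16* and *AQP1*, and the 5 genes most like each of the 6 by r of log2(level + 0.05) among genes with at least 200 UMIs. Of these, 1 is not reported here. The 6 genes, the lists and the markers *WFDC2* and *FGG* were chosen with earlier results of these data known.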

Additional observations from a re-analysis of the deposited data

How the results depend on the processing

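Without the dog as a block, the calls in Müller over astrocyte-like glia went from 1428 higher and 994 lower to 105 and 58, those in Müller glia over rods from 3608 and 3449 to 1335 and 721, and those in astrocyte-like glia over rods from 2970 and 3012 to 1310 and 922. The calls lost there were *CA14* between the glia (1.25), *KCNJ10* (5.54), *CA14* (5.09) and *SLC4A4* (1.56) in Müller glia over rods, and *KCNJ10* (6.23), *SLC14A1* (-6.16) and *CA14* (3.85) in astrocyte-like glia over rods, all as log2 folds. With DESeq2 there were 827 genes higher between the glia, 1974 lower in Müller glia than in rods and 1669 lower in astrocyte-like glia than in rods, and *CA14* between the glia (2.11) and *SLC14A1* in astrocyte-like glia over rods (-3.09) were lost. With names that start with MT- under 5%, in a fit of 6 sums with 2 residual degrees of freedom, 715 genes were higher between the glia. The calls of *CA14* between the glia (1.16) and *SLC4A4* in Müller glia over rods (0.98) were lost there. DESeq2's size factors in edgeR made *KCNJ10* a call between the glia (-0.77), and library totals without TMM, added after the data had been seen, made *KCNJ10* (-1.24) and *AQP4* (-0.83) calls, turned *CA2* (-0.20) and gave 681 genes higher and 2492 lower. The share of calls that were higher between the glia was then 21.5%, against 59.0% with TMM. With DESeq2's size factors it was 62.2% in astrocyte-like glia over rods against 49.6%, and the median of all genes over rods moved from -0.011 to 0.23 in Müller glia and from -0.22 to 0.094 in astrocyte-like glia. Without the filter on low counts, with at most 10% of UMIs on 13 mitochondrial genes, with the stricter gate and without the highest doublet scores, none of the calls of the 6 genes in the 3 comparisons changed.

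As the mean log2 ratio of levels over the dogs, with no test, *KCNJ10* between the glia turned from -1.33 to 0.16 with names that start with MT- under 5%. There N354 kept 23 Müller glia with 75691 UMIs of all genes and 26 astrocyte-like glia with 106957. The fitted fold of *KCNJ10* between the glia did not change sign in that setting. For *CA14*, 1.94 became a lower bound of -0.087 with the astrocyte gate without *WFDC2* and *FGG*, which left 13 and 11 cells and was not fitted. That bound takes the 0 UMIs of N354 as 3, so that no turn of direction was measured. *SLC14A1* had 0 UMIs in those cells too. In either dog alone the 6 ratios between the glia kept their sign. With the level in rods subtracted from each glia, 5 of these ratios moved by no more than the SD over the dogs. Only 1, that of *SLC4A4*, moved by more, and none turned. In N350 the *SLC4A4* level of Müller glia, 0.0460, was close to that of rods, 0.0414. The counting intervals of N354 included 1 for *CA2*, 0.994 (0.939 to 1.05), and for *AQP4*, 0.807 (0.52 to 1.30). The fitted log2 fold of *CA2* with TMM, 0.38, had the other sign. The sums of small classes limit the depth, and a gene with 0 UMIs in astrocyte-like glia of N354 may have a level of up to 0.109.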
